A study of Mus musculus with 10 samples.

Results

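Genes that make cholesterol and fatty acids, with the regulators of that synthesis and the proteins that move or export sterol, were followed in embryonic fibroblasts of the mouse, a connective tissue cell in culture. The genes were chosen by name for their role, from general knowledge, with earlier results of these data known. Of 37 listed, 35 could be matched to a probe set of 1 gene, and 33 were bright enough to be tested, among 7761 tested genes in all. The 33 comprised 17 enzymes of sterol synthesis, 4 regulators, 4 genes of sterol traffic or export and 8 of fatty acid synthesis. All labels describe fibroblasts from which G9a, the histone H3 lysine 9 methyltransferase encoded by Ehmt2, had been deleted. One group of these cells was given FLAG-tagged G9a with the K165A substitution (K165A), another FLAG-G9a with H1093K, which the labels call a catalytic mutant (H1093K), and another wild-type FLAG-G9a (WT). The cells of the delta group received the empty vector. A further group is titled only as G9a-deleted, with no vector named, and is called the arrays labelled deleted. Each group had 2 Affymetrix arrays, whose signals are given on a linear scale, replicate 1 before replicate 2, while differences are on the log2(signal + 16) scale. By its title, the study was about methylation of G9a itself at a histone-like site. The comparisons ask how these genes changed when wild-type G9a was put back, and whether the 2 substituted forms did the same. The promoter of the vectors, the number of clones and the age of the embryos are not given in the sources.

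Cholesterol is built from acetyl-CoA, first to mevalonate and farnesyl pyrophosphate, then to squalene and through a series of sterol intermediates to cholesterol. The genes of this route are controlled together by SREBP-2, the product of Srebf2, and those of fatty acid synthesis mainly by SREBP-1, the product of Srebf1. When membrane cholesterol is low, the escort protein SCAP carries the SREBPs from the endoplasmic reticulum to the Golgi, where proteases release their active part. INSIG proteins hold SCAP back when sterol is plentiful. Oxysterols act in the opposite sense through LXR receptors, which switch on Abca1 and other genes of cholesterol export.

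The arrays labelled deleted stood apart from the rest. Taken over probe sets, which do not count as replicates, Pearson's r of log2 signals lay between 0.983 and 0.987 for arrays of 1 group, between 0.972 and 0.991 for arrays of 2 of the other groups, and between 0.947 and 0.959 for an array labelled deleted and any other. Ehmt2 had signals of 704 and 725 in K165A arrays, 461 and 494 in H1093K arrays, 1678 and 1749.7 in arrays labelled deleted, 676 and 620.4 in WT arrays and 473 and 415 in delta arrays. By this probe set, the brightest of the gene, the signal was highest in the arrays labelled deleted, against their label. The H1093K arrays overlapped the delta arrays. A dimmer tested probe set of Ehmt2, with a mean signal of 104, had 90.4 and 178 in K165A arrays and 116 and 55.7 in H1093K arrays. It had 162 and 247 in arrays labelled deleted, 40.9 and 106 in WT arrays and 7.13 and 36.5 in delta arrays. There the H1093K arrays lay above the delta arrays. Where the probes lie relative to the deletion and to the introduced cDNA is not stated in the sources used here, so these signals do not check the labels. The amounts of FLAG-G9a protein were not analysed here. Median signals of the 10 arrays ranged between 181 and 199.6. Of 10 fibroblast markers, Col1a1, Col1a2 and Vim carried most of the summed signal, which lay between 38716 and 50985 on every array. Dcn had signals of 54 and 7.23 in K165A arrays, 6.55 and 5.59 in H1093K arrays, 1357 and 1519 in arrays labelled deleted, 5.28 and 7.27 in WT arrays and 8.24 and 32.1 in delta arrays. Pdgfra had signals of 81.7 and 78.8 in K165A arrays, 27.6 and 48.9 in H1093K arrays, 1628 and 1743 in arrays labelled deleted, 46.2 and 55.7 in WT arrays and 5.78 and 5.48 in delta arrays. Both thus lay below the brightness filter of 104 in the 8 other arrays and passed it only through the arrays labelled deleted. Of the 10 markers, 4 were higher and 2 lower in WT than in delta, beside 5.85% and 7.69% of all genes (limma). In the arrays labelled deleted, 5 were higher and 2 lower than in delta, beside 17.4% and 19.1% of all genes (limma). Dcn and Pdgfra are among those 5. Because of how they passed the filter, no call of either gene is read as a result. In bulk RNA such as this, fewer cells of a type and less RNA per cell cannot be told apart.

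In cells with the K165A form or wild-type G9a, 11 of the 17 sterol synthesis enzymes had lower signals in every array than in any H1093K or delta array, and Abca1, which exports cholesterol, was higher. In WT against delta, 12 of 33 genes were lower and 2 higher by limma at a Benjamini-Hochberg adjusted p of 0.05 over all probe sets, or 36.4% and 6.06%. Among all genes tested, 7.69% were lower and 5.85% higher. In K165A against delta, 13 were lower and 1 higher, beside 7.74% and 5.32% of all genes. In H1093K against WT, 13 were higher and 1 lower, beside 4.81% and 4.46% of all genes. In K165A against H1093K, 13 were lower and 1 higher, beside 4.56% and 3.74% of all genes. The median log2 difference of the 33 genes was -0.29 in WT against delta and -0.24 in K165A against delta, beside -0.02 and -0.01 over all genes. It was 0.29 in H1093K against WT and -0.28 in K165A against H1093K, beside 0.01 and -0.01. These 4 comparisons share groups in part, so their counts are not independent of each other. All 4 arrays of K165A and WT lay below all 4 arrays of H1093K and delta for 16 of 33 genes, beside 13.3% of all genes, and above them for 2, Pmvk and Abca1, beside 10.6%.

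**Figure D1:**
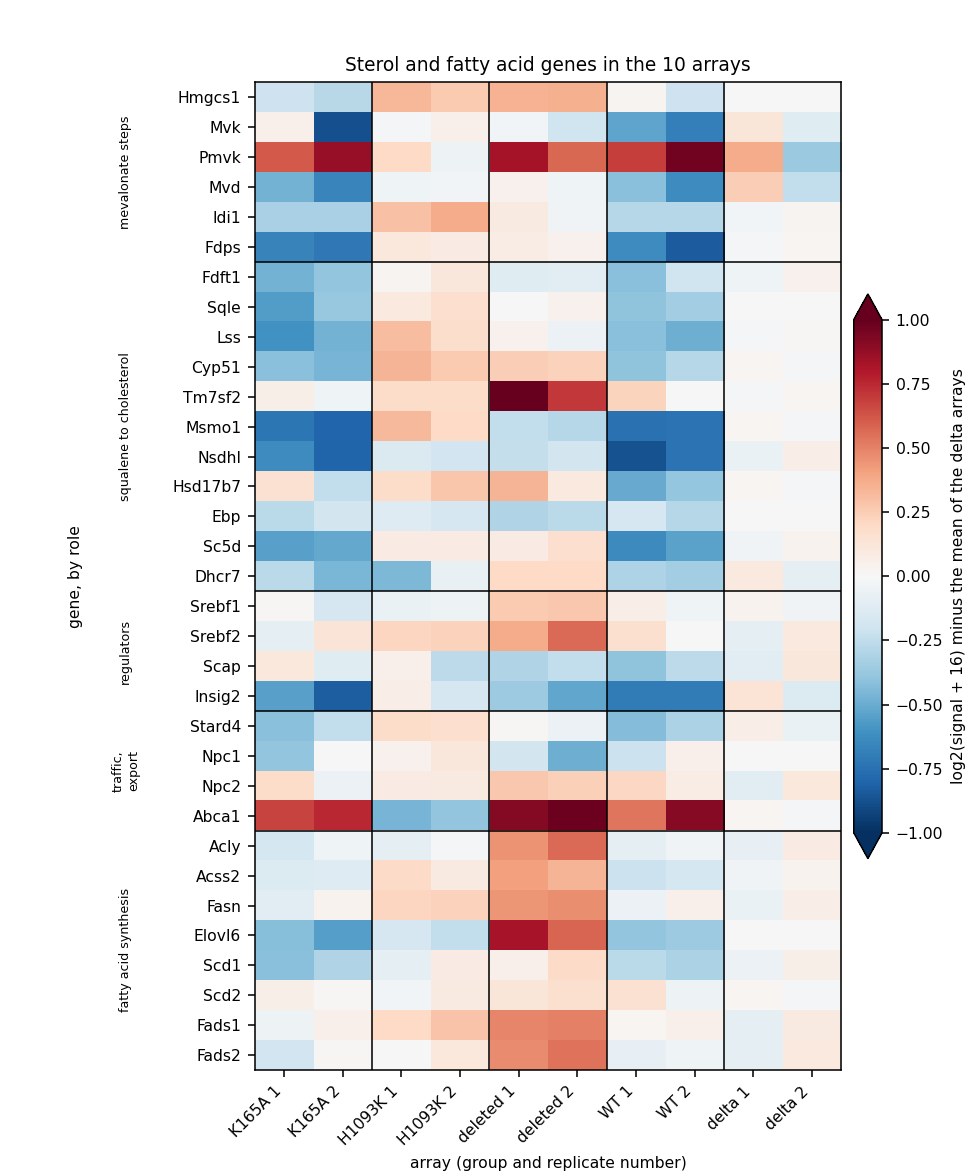
Each row is 1 of the 33 tested genes, grouped by role, and each column 1 of the 10 arrays. Colour gives log2(signal + 16) minus the mean of the delta arrays (red above, blue below, cut at 1 and -1). Msmo1, Fdps and Sc5d are blue in the 4 K165A and WT arrays, whereas the fatty acid genes Acly, Fasn, Fads1 and Fads2 are deepest red in the arrays labelled deleted.

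Of 6 tested genes of the mevalonate steps, 2 were lower in WT than in delta, Idi1 and Fdps, and 1 was higher, Pmvk. Fdps, which joins isoprene units into farnesyl pyrophosphate, had signals of 2154 and 2092 in K165A arrays, 3696 and 3651 in H1093K arrays, 3619.5 and 3549 in arrays labelled deleted, 2221 and 1927 in WT arrays and 3403 and 3479.9 in delta arrays. Its 4 K165A and WT signals lay below the other 6. The log2 difference was -0.69 (adjusted p = 0.000451) in K165A against delta, 0.82 (adjusted p = 0.000157) in H1093K against WT and -0.73 (adjusted p = 0.000318) in WT against delta (limma). Idi1, the isomerase that supplies the activated isoprene units, had signals of 1042 and 1040.2 in K165A arrays, 1601 and 1693 in H1093K arrays, 1393 and 1276 in arrays labelled deleted, 1071 and 1066 in WT arrays and 1281 and 1332 in delta arrays. Its K165A and WT signals were the lowest and its H1093K signals the highest, and H1093K stood at 1.53-fold the WT level (log2 difference 0.62, adjusted p = 0.000531, limma). In WT against delta the Idi1 log2 difference was -0.29 (adjusted p = 0.0315) by limma.

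Hmgcs1, the synthase that makes the precursor of mevalonate, had signals of 2701 and 2572 in K165A arrays, 3935 and 3747 in H1093K arrays, 3981 and 3987 in arrays labelled deleted, 3179.6 and 2695 in WT arrays and 3119 and 3119.7 in delta arrays. High values were found in the H1093K arrays and those labelled deleted, and the WT arrays overlapped the delta arrays. Hmgcs1 was higher in H1093K than in WT (log2 difference 0.39, adjusted p = 0.0236) and lower in K165A than in H1093K (log2 difference -0.54, adjusted p = 0.0042), while the log2 difference in WT against delta, -0.09 (adjusted p = 0.572), did not pass (limma). Mvd, the decarboxylase that makes isopentenyl pyrophosphate, had signals of 239 and 208 in K165A arrays, 327 and 331 in H1093K arrays, 349 and 328 in arrays labelled deleted, 248 and 213 in WT arrays and 403 and 283 in delta arrays. It passed only in the arrays labelled deleted against WT (log2 difference 0.53, adjusted p = 0.0341, limma), although both K165A and both WT arrays lay below the remaining 6. Pmvk, which adds the second phosphate to mevalonate, had signals of 331 and 399 in K165A arrays, 244 and 202 in H1093K arrays, 388 and 321 in arrays labelled deleted, 351 and 426 in WT arrays and 277 and 159 in delta arrays. Its signals ran the other way, highest in K165A, WT and the arrays labelled deleted, and it was higher in WT than in delta (log2 difference 0.83, adjusted p = 0.0443, limma). The delta arrays of Pmvk differed from each other widely. Mvk, the kinase of mevalonate, passed in none of the 8 comparisons, and its group means lay between 159 and 254.

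In the steps from squalene to cholesterol, 7 of 11 tested genes were lower in WT than in delta and the same number in K165A than in delta, with 0 higher in either. Msmo1, the oxidase that starts removal of the methyl groups at carbon 4 of the sterol ring, had signals of 1183 and 1124 in K165A arrays, 2460.5 and 2248 in H1093K arrays, 1646 and 1608 in arrays labelled deleted, 1161 and 1165 in WT arrays and 1985 and 1933 in delta arrays. The K165A and WT signals were lowest, the H1093K signals highest, and the arrays labelled deleted lay between WT and delta. Msmo1 was 2.01-fold higher in H1093K than in WT (log2 difference 1.01, 95% interval 0.85 to 1.17, adjusted p = 3.02e-05) by limma. It was lower in K165A than in H1093K (log2 difference -1.02, adjusted p = 2.42e-05) and lower in WT than in delta (log2 difference -0.74, adjusted p = 0.000125). It was also lower in the arrays labelled deleted than in delta (log2 difference -0.27, adjusted p = 0.017, limma).

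Nsdhl, the dehydrogenase of the same demethylation, had signals of 664 and 588 in K165A arrays, 936 and 902 in H1093K arrays, 872 and 909.9 in arrays labelled deleted, 558 and 612 in WT arrays and 986 and 1084 in delta arrays. Sc5d, the desaturase of the sterol B ring, had signals of 607 and 623 in K165A arrays, 947 and 944 in H1093K arrays, 945 and 1004 in arrays labelled deleted, 569 and 609.5 in WT arrays and 870.4 and 915 in delta arrays. Cyp51, which removes the methyl group at carbon 14, had signals of 832 and 805 in K165A arrays, 1415 and 1344 in H1093K arrays, 1327 and 1312 in arrays labelled deleted, 842 and 914 in WT arrays and 1129.8 and 1104 in delta arrays. In each of the 3 genes the K165A and WT arrays lay below all the others. The log2 difference in WT against delta was -0.81 (adjusted p = 0.00039) for Nsdhl, -0.59 (adjusted p = 0.000963) for Sc5d and -0.34 (adjusted p = 0.0142) for Cyp51 (limma). In H1093K against WT it was 0.64 (adjusted p = 0.00178) for Nsdhl, 0.67 (adjusted p = 0.000455) for Sc5d and 0.64 (adjusted p = 0.000398) for Cyp51 (limma).

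Sqle, the squalene epoxidase, had signals of 1009 and 1147 in K165A arrays, 1604 and 1678 in H1093K arrays, 1494 and 1537 in arrays labelled deleted, 1125 and 1171 in WT arrays and 1499 and 1490.2 in delta arrays. Lss, which closes squalene epoxide into lanosterol, had signals of 291 and 321 in K165A arrays, 562 and 510.4 in H1093K arrays, 466 and 432 in arrays labelled deleted, 333 and 317 in WT arrays and 448 and 454 in delta arrays. Fdft1, the squalene synthase, had signals of 1061 and 1122 in K165A arrays, 1507 and 1600.3 in H1093K arrays, 1359 and 1373 in arrays labelled deleted, 1101 and 1287 in WT arrays and 1434 and 1525 in delta arrays. All 4 K165A and WT arrays lay below the other 6 in Sqle and Lss, and in Fdft1 as well. In K165A against H1093K the log2 difference was -0.60 (adjusted p = 0.00102) for Sqle, -0.78 (adjusted p = 0.00113) for Lss and -0.50 (adjusted p = 0.00606) for Fdft1 (limma). Lss and Mvd were read by probe sets whose name ends in _s_at, whose probes can match several transcripts.

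Hsd17b7, the ketoreductase of the demethylation at carbon 4, had signals of 268 and 199 in K165A arrays, 273 and 293 in H1093K arrays, 308 and 257 in arrays labelled deleted, 164 and 179 in WT arrays and 242 and 236 in delta arrays. Its WT signals were lowest and it was higher in H1093K than in WT (log2 difference 0.68, adjusted p = 0.0279, limma), while the log2 difference in K165A against delta was -0.05 (adjusted p = 0.897). The other 3 enzymes did not follow the K165A and WT pattern in the tests. Ebp, the isomerase of the B ring, had signals of 815 and 866 in K165A arrays, 898 and 878 in H1093K arrays, 797 and 815 in arrays labelled deleted, 875 and 805 in WT arrays and 983 and 989 in delta arrays. Dhcr7, the reductase of the last step, had signals of 296 and 259 in K165A arrays, 260.1 and 342 in H1093K arrays, 418 and 418 in arrays labelled deleted, 289 and 281 in WT arrays and 388 and 336 in delta arrays. Tm7sf2, a reductase at carbon 14, had signals of 189 and 176 in K165A arrays, 208 and 208 in H1093K arrays, 379 and 306 in arrays labelled deleted, 214 and 182 in WT arrays and 178 and 184 in delta arrays. Ebp was highest in delta and passed only as lower in the arrays labelled deleted than in delta (log2 difference -0.29, adjusted p = 0.0156, limma). Dhcr7 passed only as higher in them than in WT (log2 difference 0.53, adjusted p = 0.0182, limma). Tm7sf2 stood out in them alone, at 1.81-fold the delta level (log2 difference 0.86, adjusted p = 0.0014, limma).

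**Figure D2:**
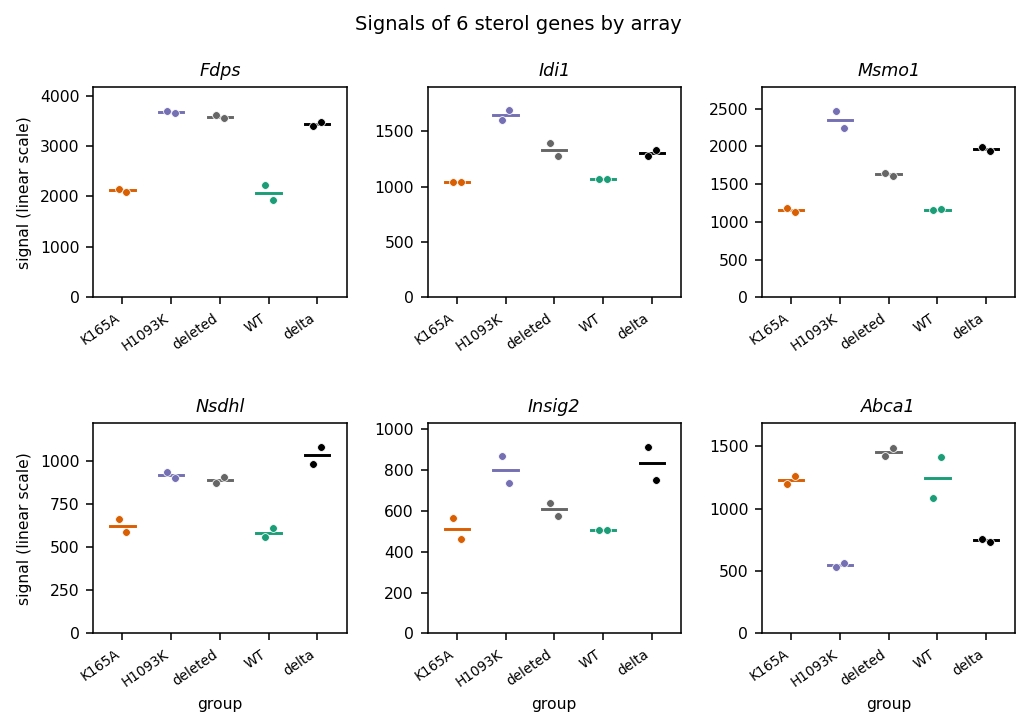
Points are the signals of single arrays on a linear scale that starts at 0, lines the means of the 2 arrays of a group, with groups on the horizontal axis. Fdps, Idi1, Msmo1 and Nsdhl are lower in the K165A and WT arrays than in the H1093K and delta arrays, Insig2 likewise, and Abca1 is the reverse.

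The promoters of these genes are shown because their known regulator, SREBP, acts through short sites near the start of transcription, together with the factor NF-Y at CCAAT boxes. RefSeq windows of GRCm38.p6, 300 bases from 250 before to 50 after the annotated start, could be matched by symbol for 25 of the 33 genes. The 8 without a window were Fads1, Fdft1, Fdps, Npc1, Scd1, Scd2, Sqle and Stard4. On both strands, CCAAT was found in 14 of 14 matched sterol synthesis genes and in 21 of 25 genes, beside 43.6% of 6346 array-tested genes with a window and 37.4% of all 32851 windows. The letters TCACNCCAC, a form of the sterol regulatory element, were found in Hmgcs1 only among the 25. They were found in 1.37% of array-tested genes with a window and 1.24% of all windows. CACGTG, the E-box, which reads the same on both strands, was found in 5 of 25 (Abca1, Dhcr7, Hsd17b7, Sc5d and Scap), beside 12.5% of array-tested genes with a window and 7.15% of all windows. A match is a description of letters, not a binding site, and no binding was measured. Below are the windows of Hmgcs1 (chr13:119690101-119690400, plus strand), Msmo1 (chr8:64733529-64733828, minus strand) and Nsdhl (chrX:72918271-72918570, plus strand), 5′ to 3′ on the gene's strand, with capitals on CCAAT or its complement ATTGG and, in Hmgcs1, also on TCACCCCAC.
Hmgcs1: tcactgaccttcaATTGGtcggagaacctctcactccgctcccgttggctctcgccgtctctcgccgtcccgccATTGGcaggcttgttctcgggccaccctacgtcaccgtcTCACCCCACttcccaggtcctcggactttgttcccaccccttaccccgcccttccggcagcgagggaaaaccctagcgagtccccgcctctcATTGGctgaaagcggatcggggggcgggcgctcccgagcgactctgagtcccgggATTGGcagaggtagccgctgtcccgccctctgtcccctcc
Msmo1: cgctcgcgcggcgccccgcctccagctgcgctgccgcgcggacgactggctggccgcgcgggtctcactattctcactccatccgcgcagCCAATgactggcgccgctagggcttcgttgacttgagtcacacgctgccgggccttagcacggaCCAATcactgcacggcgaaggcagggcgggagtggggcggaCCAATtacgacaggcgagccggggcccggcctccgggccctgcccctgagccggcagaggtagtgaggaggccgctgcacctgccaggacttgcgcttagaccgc
Nsdhl: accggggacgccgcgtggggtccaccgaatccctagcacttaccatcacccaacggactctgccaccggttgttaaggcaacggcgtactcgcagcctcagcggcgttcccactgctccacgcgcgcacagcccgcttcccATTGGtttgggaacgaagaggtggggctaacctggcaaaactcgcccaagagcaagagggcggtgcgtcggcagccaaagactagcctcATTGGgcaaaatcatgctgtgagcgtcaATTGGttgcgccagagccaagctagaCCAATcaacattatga
Hmgcs1 had 4 CCAAT matches and the sterol regulatory element, Msmo1 3 CCAAT matches and Nsdhl 4. The motifs did not overlap each other in these windows. The log2 difference in WT against delta was -0.09 for Hmgcs1, -0.74 for Msmo1 and -0.81 for Nsdhl.

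K165A against delta and H1093K against WT have no array in common, so the lists they give can be set side by side. Of the 33 genes, 13 were lower in K165A than in delta and 13 higher in H1093K than in WT, and 11 were on both lists, 84.6% of each. For all genes, 601 were lower in K165A than in delta, 373 higher in H1093K than in WT, and 268 on both, 44.6% and 71.8% of the lists. The 11 were Fdps, Idi1, Fdft1, Sqle, Lss, Cyp51, Msmo1, Nsdhl, Sc5d, Insig2 and Stard4. The other disjoint pair, WT against delta and K165A against H1093K, gave 12 and 13 lower genes with 11 in common, 91.7% and 84.6% of the lists, beside 597 and 354 with 250 in common over all genes, 41.9% and 70.6%. Among the 17 sterol synthesis enzymes, 9 were lower in K165A than in delta, with a median log2 difference of -0.43, and 11 were higher in H1093K than in WT, with a median of 0.62. Both fits share 1 estimate of the spread over the 10 arrays.

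**Figure D3:**
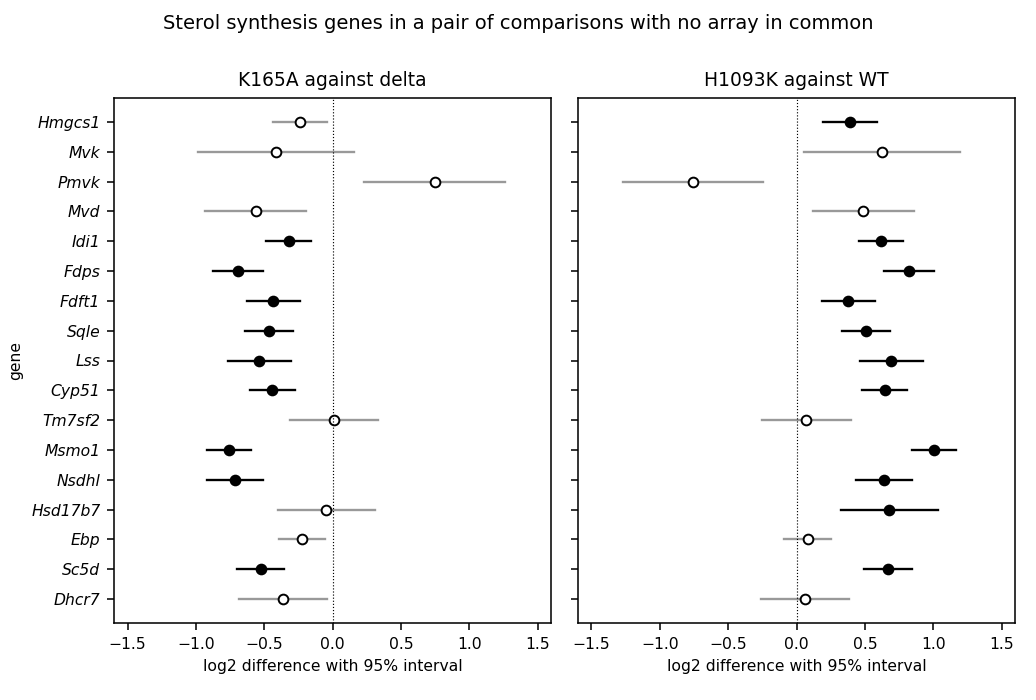
Points are log2 differences of the 17 sterol synthesis genes in K165A against delta (left) and H1093K against WT (right), bars their 95% intervals, and filled points those with an adjusted p under 0.05. The 9 filled points on the left lie below 0 and the 11 on the right above it, while Pmvk lies on the opposite side in both panels.

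The K165A and WT arrays gave 0 of 33 genes in either direction in K165A against WT by limma, as they did over all genes (0% higher and 0% lower). At an unadjusted p of 0.05, 2 of the 33, Hsd17b7 and Scap, and 213 of 7761 genes passed. For the 11 genes named above, the K165A minus WT log2 differences lay between -0.12 and 0.09, and their 95% limits between -0.32 and 0.31. H1093K against delta also gave 0 of 33 by limma, beside 0.515% of all genes higher and 0.49% lower. That 0 did not hold in every alternative. When the probe sets of a gene were averaged, 1 gene passed, and more passed with the replicate number as a block, as given in the closing section. At an unadjusted p of 0.05, 8 of 33 passed (Hmgcs1, Idi1, Lss, Cyp51, Msmo1, Abca1, Fasn and Fads1), beside 963 of 7761 genes. For the same 11 genes the H1093K minus delta differences lay between -0.17 and 0.33, with 95% limits between -0.37 and 0.49, and 9 of 11 were above 0. By its brightest probe set, the Ehmt2 signal of the H1093K arrays overlapped that of the delta arrays, and by a dimmer one it lay above, as given earlier. The part of Ehmt2 in these differences was not tested.

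Some markers of other cell types moved with the groups. A limma F test over the 4 groups without the arrays labelled deleted called 3 of 6 tested epithelial and 1 of 2 adipocyte markers. It called 0 of 3 macrophage and 0 of 1 endothelial markers, beside 13% of all genes. The summed signal of 7 epithelial markers (Cdh1, Krt8, Krt18, Krt19, Krt7, Dsp and Epcam, the last too dim to test) lay between 968 and 1076 in K165A, 2629.8 and 2803 in the H1093K arrays, 4559.9 and 4567 in the arrays labelled deleted, 1083 and 1182 in WT, and 3787 and 4058 in delta. The sum was thus lowest in K165A and WT, the groups in which the 11 genes named above were lowest, but single markers differed. Krt7 had signals of 386 and 358 in K165A arrays, 1804 and 1742 in H1093K arrays, 83.1 and 113 in arrays labelled deleted, 367 and 309.6 in WT arrays and 2659.8 and 2557 in delta arrays. Cdh1 had signals of 130.0 and 126 in K165A arrays, 121 and 77.4 in H1093K arrays, 31.9 and 16.1 in arrays labelled deleted, 175 and 168 in WT arrays and 135 and 77.4 in delta arrays, highest in WT. Of the 6 tested, 3 were lower and 0 higher in WT than in delta, and likewise in K165A than in delta (limma). Of all genes, 7.69% and 7.74% were lower in these comparisons and 5.85% and 5.32% higher. Dsp passed the brightness filter only through the arrays labelled deleted, with signals of 357 and 358 there and 29.2 to 52.4 elsewhere. In those arrays Krt8 and Krt18 carried most of the epithelial sum, with group means of 1603 and 2071. Of 7 adipocyte markers with a probe set, 2 could be tested, Fabp4 and Lipe, and the sum of all 7 lay between 418 and 423 in K165A, 756 and 834 in the H1093K arrays, 342 and 369.7 in the arrays labelled deleted, 399 and 496 in WT, and 565 and 584 in delta. Adipoq, Lep, Cidec, Pparg and Retn were below the brightness filter. Fabp4 alone had signals of 139.9 and 126 in K165A arrays, 587 and 508 in H1093K arrays, 112 and 60 in arrays labelled deleted, 155 and 108 in WT arrays and 368 and 359 in delta arrays. Lipe had signals of 109 and 116 in K165A arrays, 92 and 98.9 in H1093K arrays, 124 and 141 in arrays labelled deleted, 142 and 126 in WT arrays and 77.7 and 91.9 in delta arrays. Lipe was thus higher in K165A and WT than in H1093K and delta, opposite to Fabp4. The part of these markers in the sterol and fatty acid results was not tested. The ratios of 3′ to 5′ probe sets, a measure of RNA integrity, lay between 0.741 and 0.794 for Gapdh and between 1.19 and 1.36 for actin over the 10 arrays.

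Among the 4 tested regulators, Insig2 alone passed between the groups that received a vector. Insig2, which holds SCAP in the endoplasmic reticulum, had signals of 565 and 461 in K165A arrays, 867 and 736 in H1093K arrays, 641 and 574 in arrays labelled deleted, 505 and 505 in WT arrays and 914 and 753 in delta arrays. Its K165A and WT signals lay below all H1093K and delta signals, and its log2 difference was -0.70 (adjusted p = 0.00801) in WT against delta, -0.63 (adjusted p = 0.0171) in K165A against H1093K and -0.44 (adjusted p = 0.0279) in the arrays labelled deleted against delta (limma). Srebf2, the transcription factor gene of sterol synthesis, had signals of 919.8 and 1072 in K165A arrays, 1139 and 1151 in H1093K arrays, 1269 and 1458 in arrays labelled deleted, 1095 and 981 in WT arrays and 913 and 1048 in delta arrays. Srebf1, its relative for fatty acid synthesis, had signals of 1425 and 1256 in K165A arrays, 1354 and 1366 in H1093K arrays, 1700.0 and 1706 in arrays labelled deleted, 1482 and 1376 in WT arrays and 1449 and 1384 in delta arrays. Both were highest in the arrays labelled deleted, where their log2 differences from delta were 0.47 (adjusted p = 0.00818) for Srebf2 and 0.26 (adjusted p = 0.0288) for Srebf1 (limma). In WT against delta, the log2 difference was 0.08 (95% interval -0.16 to 0.32) for Srebf2 and 0.01 (95% interval -0.17 to 0.19) for Srebf1, and neither passed. Scap, the escort of the SREBPs, passed in none of the 8 comparisons, with group means between 759 and 960.2. SREBP activity depends on cleavage of the protein, which arrays do not read.

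Abca1, the pump that exports cholesterol to apolipoprotein A-I and a known LXR target, was higher where most of the sterol enzymes were lower. It had signals of 1199 and 1265 in K165A arrays, 534 and 562 in H1093K arrays, 1423 and 1484 in arrays labelled deleted, 1084 and 1411 in WT arrays and 757 and 732 in delta arrays. The H1093K arrays were lowest, the delta arrays next, and the K165A, WT and deleted arrays all higher. Abca1 was 2.22-fold lower in H1093K than in WT (log2 difference -1.15, 95% interval -1.40 to -0.90, adjusted p = 0.000146), and higher in WT than in delta (log2 difference 0.72, adjusted p = 0.00256) and in K165A than in delta (log2 difference 0.71, adjusted p = 0.00273) by limma. In the arrays labelled deleted, Abca1 was above delta (log2 difference 0.95, adjusted p = 0.000132, limma), while 4 of 17 sterol synthesis genes were higher and 2 lower, or 23.5% and 11.8%. These shares lie near the 17.4% and 19.1% of all genes.

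The Abca1 window (chr4:53159846-53160145 of GRCm38.p6, minus strand, from RefSeq) is shown because LXR is known to bind direct repeats of 6 bases with 4 between them. Capitals mark the repeat, searched as NGGTNA followed after 4 bases by NGGTNA on either strand and read here on the complementary strand. It starts 67 bases before the annotated start of transcription. The pattern was found in 3 of 25 genes, Abca1, Fasn and Srebf1, beside 0.488% of array-tested genes with a window and 0.718% of all windows.
Abca1: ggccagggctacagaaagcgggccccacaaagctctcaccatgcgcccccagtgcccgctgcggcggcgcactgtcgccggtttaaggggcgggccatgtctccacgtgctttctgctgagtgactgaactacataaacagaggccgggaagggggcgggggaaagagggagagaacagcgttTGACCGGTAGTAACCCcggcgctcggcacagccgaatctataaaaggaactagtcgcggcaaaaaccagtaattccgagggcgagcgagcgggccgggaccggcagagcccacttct

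Stard4, which carries cholesterol between membranes in the cytosol, had signals of 584 and 662 in K165A arrays, 896 and 885 in H1093K arrays, 794 and 758 in arrays labelled deleted, 580.4 and 629 in WT arrays and 825 and 752 in delta arrays. Its K165A and WT signals were lowest, as for the enzymes, and its log2 difference was -0.37 (adjusted p = 0.0267) in WT against delta and 0.55 (adjusted p = 0.00459) in H1093K against WT (limma). Npc1 and Npc2, which move cholesterol out of lysosomes, passed in none of the 8 comparisons, with group means between 241 and 325 for Npc1 and 5273 and 6276 for Npc2. Abcg1, another sterol exporter, was too dim to test and had signals of 128 and 40.1 in K165A arrays, 115 and 44 in H1093K arrays, 86.2 and 46.1 in arrays labelled deleted, 65.8 and 58.3 in WT arrays and 189.5 and 125 in delta arrays.

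Of the 8 tested fatty acid genes, 6 were higher in the arrays labelled deleted than in delta, beside 17.4% of all genes, and 7 were higher than in WT, beside 18%. Their median log2 difference was 0.47 against delta and 0.52 against WT. In WT against delta, 1 of 8 (12.5%) was lower, beside 7.69% of all genes, and in K165A against delta 2 (25%) were lower, beside 7.74%, with 0 higher in either. In H1093K against WT, 0 of 8 passed by limma, and 4 at an unadjusted p of 0.05. Elovl6, which extends palmitate to stearate, had signals of 364 and 333 in K165A arrays, 437 and 413 in H1093K arrays, 887 and 748 in arrays labelled deleted, 372 and 381 in WT arrays and 496 and 492 in delta arrays. It was highest in the arrays labelled deleted and lowest in K165A and WT. Elovl6 was 2.12-fold higher in the arrays labelled deleted than in WT (log2 difference 1.08, 95% interval 0.85 to 1.32, adjusted p = 4.19e-05), and lower in K165A (log2 difference -0.49, adjusted p = 0.0157) and in WT (log2 difference -0.38, adjusted p = 0.0456) than in delta by limma.

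Acly, which makes cytosolic acetyl-CoA from citrate, had signals of 1468 and 1608 in K165A arrays, 1559 and 1645 in H1093K arrays, 2268 and 2464 in arrays labelled deleted, 1548 and 1619.5 in WT arrays and 1564 and 1754 in delta arrays. Fasn, the fatty acid synthase, had signals of 860.4 and 953 in K165A arrays, 1079 and 1092 in H1093K arrays, 1265 and 1285 in arrays labelled deleted, 892 and 961 in WT arrays and 887 and 971 in delta arrays. Acss2, which makes acetyl-CoA from acetate, had signals of 192 and 193 in K165A arrays, 245 and 227 in H1093K arrays, 288 and 274 in arrays labelled deleted, 181 and 186 in WT arrays and 207 and 218 in delta arrays. In Acly, Fasn and Acss2 both arrays labelled deleted were above the other 8. Their log2 differences from delta were 0.51 (adjusted p = 0.00137) for Acly, 0.45 (adjusted p = 0.0022) for Fasn and 0.38 (adjusted p = 0.0361) for Acss2 (limma).

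Fads1, the delta-5 desaturase of polyunsaturated fatty acids, had signals of 2389.7 and 2562 in K165A arrays, 2845 and 3017 in H1093K arrays, 3467 and 3516 in arrays labelled deleted, 2500.1 and 2557 in WT arrays and 2321 and 2633 in delta arrays. Fads2, the delta-6 desaturase, had signals of 1032 and 1188 in K165A arrays, 1173 and 1269 in H1093K arrays, 1642 and 1722 in arrays labelled deleted, 1112 and 1144 in WT arrays and 1104 and 1259.9 in delta arrays. Scd1, which makes monounsaturated fatty acids, had signals of 2846 and 3091 in K165A arrays, 3579 and 4043 in H1093K arrays, 3946 and 4355 in arrays labelled deleted, 3167 and 3067 in WT arrays and 3653 and 3981 in delta arrays. The 2 Fads genes were highest in the arrays labelled deleted, with log2 differences of 0.50 (adjusted p = 0.00125) for Fads1 and 0.51 (adjusted p = 0.00243) for Fads2 against delta (limma). Scd1 did not single out those arrays in the same way, and its K165A and WT signals were lowest. It was lower in K165A than in delta (log2 difference -0.36, adjusted p = 0.0347) and than in H1093K (log2 difference -0.36, adjusted p = 0.0471) by limma, while the log2 difference in WT against delta, -0.29 (adjusted p = 0.0756), did not pass. Scd2, its relative, passed in none of the 8 comparisons by its brightest probe set, with group means between 7364 and 8124. Its 2 other tested probe sets passed a limma F test over the 5 groups (adjusted p = 0.0262 and 0.0307). Both were highest in the arrays labelled deleted, at 4521 and 4939 in 1 probe set and 1040 and 1353 in the other. Acaca, the acetyl-CoA carboxylase, was too dim to test and had signals of 103 and 90.5 in K165A arrays, 91.5 and 86.7 in H1093K arrays, 69.3 and 81.4 in arrays labelled deleted, 89.3 and 71 in WT arrays and 102 and 115 in delta arrays.

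**Figure D4:**
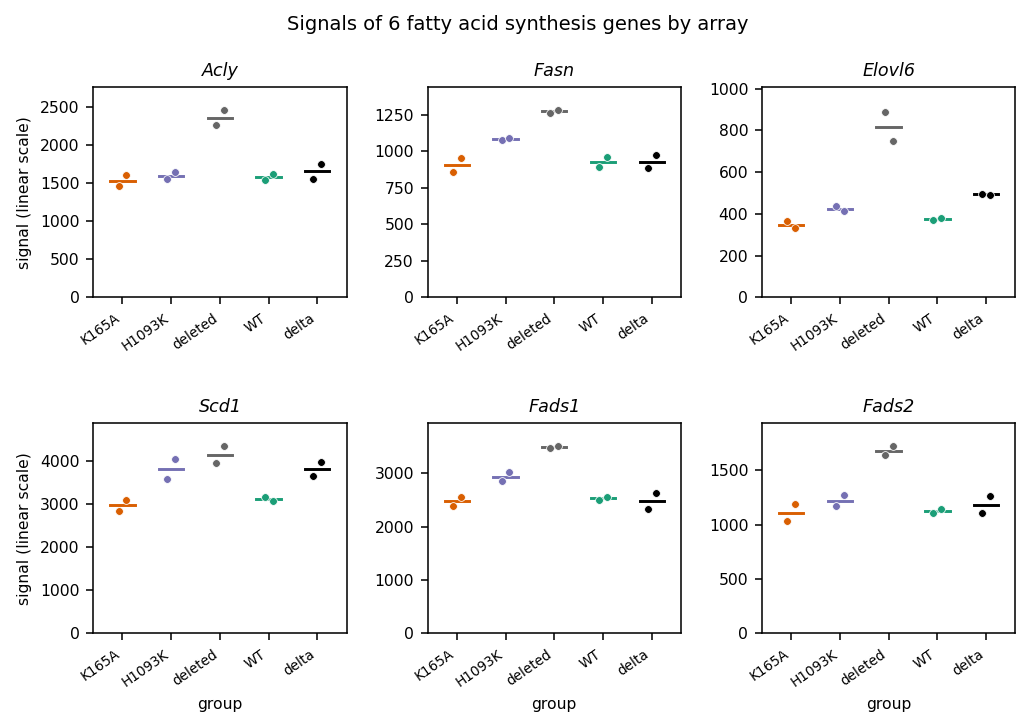
Points are the signals of single arrays on a linear scale that starts at 0, lines the means of the 2 arrays of a group, with groups on the horizontal axis. Acly, Fasn, Elovl6, Fads1 and Fads2 are highest in the 2 arrays labelled deleted, and Scd1 is lowest in the K165A and WT arrays.

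Over all roles, the arrays labelled deleted gave 13 higher and 3 lower of 33 genes against delta, beside 17.4% and 19.1% of all genes, and 23 higher and 0 lower against WT, beside 18% and 17.7% of all genes. The split between higher and lower calls over all genes moved with the scaling in these 2 comparisons. After centring every array on its median, the higher share of all calls was 36.5% against delta and 38.8% against WT, beside 47.6% and 50.4% as deposited. Of the 33 genes, 10 were then higher and 4 lower against delta and 20 higher and 0 lower against WT. In the 5-group F test of limma, 27 of 33 genes passed, beside 40% of all genes. In the F test over the 4 groups without the arrays labelled deleted, 15 of 33 passed, beside 13% of all genes, with 10 of the 17 sterol synthesis genes and 2 of the 8 fatty acid genes among them.

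Other genes of lipid metabolism were taken from a list of 36, of which 25 could be tested. In WT against delta, 7 (28%) were lower and 2 (8%) higher, beside 7.69% and 5.85% of all genes. In K165A against delta, 4 (16%) were lower and 2 (8%) higher, beside 7.74% and 5.32%. In H1093K against WT, 8 (32%) were higher and 0 lower, beside 4.81% and 4.46%. In K165A against H1093K, 5 (20%) were lower and 0 higher, beside 4.56% and 3.74%. In the arrays labelled deleted against delta, 7 (28%) were lower and 7 (28%) higher, beside 19.1% and 17.4%. The 6 with the smallest adjusted p across the 5 groups were Fabp5, Vldlr, Osbp, Acsl4, Mylip and Hsd17b12. Vldlr, a lipoprotein receptor, had signals of 71.1 and 65.9 in K165A arrays, 69.5 and 40.9 in H1093K arrays, 900.4 and 776 in arrays labelled deleted, 72.3 and 67.9 in WT arrays and 67.3 and 53.6 in delta arrays. Its signal was high in the arrays labelled deleted alone, through which it passed the brightness filter. Its place among the 6, and among the 7 higher in those arrays than in delta, follows from that and is not read as a result. No fold or test is given for it. Fabp5, a fatty acid carrier, had signals of 575 and 690.0 in K165A arrays, 852 and 924 in H1093K arrays, 2231 and 2385 in arrays labelled deleted, 638 and 660.2 in WT arrays and 987 and 1004 in delta arrays. Hsd17b12, a ketoreductase of fatty acid elongation, had signals of 1689 and 1551 in K165A arrays, 2323 and 2209.9 in H1093K arrays, 1959 and 1922 in arrays labelled deleted, 1262 and 1366 in WT arrays and 2418 and 2369 in delta arrays. Both were lower in K165A and WT than in delta, with log2 differences of -0.65 (adjusted p = 0.0019) and -0.61 (adjusted p = 0.00278) for Fabp5 and -0.56 (adjusted p = 0.00112) and -0.86 (adjusted p = 6.82e-05) for Hsd17b12 (limma).

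Acsl4, which activates arachidonate to its CoA ester, had signals of 652 and 599 in K165A arrays, 1173 and 997 in H1093K arrays, 1746 and 1492 in arrays labelled deleted, 576 and 603 in WT arrays and 824 and 692 in delta arrays. It was higher in H1093K than in WT (log2 difference 0.86, adjusted p = 0.00139) and was highest in the arrays labelled deleted, above delta (log2 difference 1.08, adjusted p = 8.20e-05, limma). Osbp, an oxysterol-binding carrier of sterol, had signals of 1637 and 1816 in K165A arrays, 1692 and 1769 in H1093K arrays, 923 and 858 in arrays labelled deleted, 1759.6 and 1799 in WT arrays and 1746 and 1815 in delta arrays. Mylip, a ubiquitin ligase of lipoprotein receptors and a known LXR target, had signals of 1582 and 1544 in K165A arrays, 1596 and 1446 in H1093K arrays, 833 and 835 in arrays labelled deleted, 1224 and 1276 in WT arrays and 1239.7 and 1217 in delta arrays. Both were lowest in the arrays labelled deleted, with log2 differences of -0.99 (adjusted p = 8.09e-06) for Osbp and -0.55 (adjusted p = 0.000285) for Mylip against delta (limma). Mylip was higher in H1093K than in WT (log2 difference 0.28, adjusted p = 0.0443, limma), the comparison in which Abca1 was lower. Its K165A signals also lay above its delta signals, and in that comparison Abca1 was higher too.

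Further probe sets of the same genes mostly gave the same sign. Over the 62 pairs of gene and comparison that passed and had another tested probe set, in 17 genes, 75 of 77 other probe sets had the sign of the brightest one and 40 also passed. The 2 exceptions were the dimmer probe set of Cyp51 in WT against delta and in K165A against delta. With 2 arrays a group, single arrays weighed on the counts. In WT against delta, the 14 called genes became 5 without WT replicate 1, 8 without WT replicate 2, 6 without delta replicate 1 and 7 without delta replicate 2. In K165A against delta, the 14 became 9 without delta replicate 2 and 10 without any other single array. For the arrays labelled deleted set against delta, the 16 became 8 without deleted replicate 1, 7 without deleted replicate 2, 8 without delta replicate 1 and 9 without delta replicate 2. Calls that passed whichever array was left out were Fdps, Msmo1, Nsdhl, Sc5d and Abca1 in WT against delta. In K165A against delta they were these 5 with Sqle and Cyp51. In H1093K against WT they were Idi1, Fdps, Sqle, Lss, Cyp51, Msmo1, Nsdhl, Sc5d and Abca1, and in K165A against H1093K these 9 with Hmgcs1. For the arrays labelled deleted set against delta they were Tm7sf2, Abca1, Acly, Fasn, Elovl6, Fads1 and Fads2, and 14 of 23 held against WT. Every other call among the 33 genes in these 6 comparisons was lost without at least 1 array. Some calls that held whichever array was left out were lost when the probe sets of a gene were averaged. These were Cyp51 (adjusted p = 0.356) and Sc5d (adjusted p = 0.0956) in K165A against delta, and Sc5d (adjusted p = 0.0508) in K165A against H1093K (limma).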

How the data were processed

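Messenger RNA was measured on 10 Affymetrix arrays, 2 for each of 5 groups taken from the sample titles. The authors deposited linear signal intensities from GCOS 1.4, per the submitters' processing notes. With the top and bottom 2% of probe sets left out, the mean signal was 500.1 in each array, and no further scaling was applied. The software's options are not given in the sources used here.

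From these intensities, log2(signal + 16) was computed, so a fold change understates the change of dim genes. Of 22690 probe sets, 64 controls were left out. Of the remaining 22626, 20380 had 1 gene in the platform annotation, 691 had several and 1555 had none. The 13576 probe sets with a mean signal at or above the 40th percentile (104) were tested, covering 7761 genes, each gene read by its brightest probe set. limma 3.58.1 in R 4.3.3 (lmFit, then a trended eBayes) took all 10 arrays with 1 mean per group (5 residual and 4.69 prior degrees of freedom). The threshold in the 8 comparisons and the F tests was 0.05 after Benjamini-Hochberg adjustment over all probe sets tested. The fit was first tested on simulated data. An exact permutation test of 2 arrays against 2 cannot give a two-sided p below 0.333 and was not used. The number of arrays limits the precision. Whether a group's arrays were separate cultures is not stated, so p-values reflect only the spread between arrays, and that spread may be technical.

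The listed genes, their roles, the further lipid genes and the marker lists were chosen from general knowledge with earlier results of these data known. By the naming rule, every listed gene is accounted for, per-array signals are given for the 28 genes that passed in any comparison, and the 6 further lipid genes of smallest adjusted p over the 5 groups are named. Acat2 and Insig1 are not analysed here. Promoter windows and their coordinates are those of RefSeq on GRCm38.p6. Alternatives covered the pseudocount, the filter, the scaling, the probe set per gene, the arrays in the fit and the replicate number as a block.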

Additional observations from a re-analysis of the deposited data

How the results depend on the processing

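The alternatives gave 1496 recomputed values, for genes called as reported and for counts of called genes. Of these, 1270 stayed the same. This means that a gene kept its direction and still passed, or that a count stayed at 0 or within 1.5 times. A further 211 were genes that kept their direction and no longer passed. The last 15 were counts that moved by over 1.5 times or away from 0. Calls gained under an alternative show only in the counts. No called gene changed sign. With limma fitted to only the arrays compared, the called genes of the 33 fell to 7 in WT against delta and 9 in K165A against delta. Leaving out 1 array at a time gave 5 to 8 in WT against delta, 9 to 10 in K165A against delta, 0 in H1093K against delta and in K165A against WT, 10 to 11 in H1093K against WT, 11 to 12 in K165A against H1093K, 7 to 9 in the arrays labelled deleted against delta, 16 to 20 in those arrays against WT, and 20 to 28 in the 5-group F test. An alternative chosen after seeing the data left out WT replicate 1 and K165A replicate 1 together, whose highest signals were the largest, and gave 5 in WT against delta and 9 in K165A against delta. H1093K against delta gave 4 with the replicate number as a block, 3 higher and 1 lower, and 1 with the mean of a gene's probe sets. With that replicate block the count was 17 in WT against delta, 18 in K165A against delta, 0 in K165A against WT and 25 in the arrays labelled deleted against WT. The replicate 1 minus replicate 2 differences correlated between groups with r from 0.229 to 0.509, in all 10 pairs of groups. With 2 numbers and no label that names a shared batch, the samples were taken to share only a number. Signals near the brightness filter are the least certain, and the dim genes Abcg1 and Acaca could not be tested.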
